A study of Mus musculus with 6 samples.

Results

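The genes described here are 50 mouse genes that interferon induces, chosen by name from a list of RNA sensors, antiviral effectors, GTPases and regulators. All 50 were present among the 55401 entries of the expression table, and all 50 had a mean of at least 10 normalized estimated counts over the libraries, as did 13180 entries in total. The members closest to that minimum were Ifit3, with a mean of 11.3, and Rtp4, with a mean of 12.5. The cells were CD4+ T cells from the spleen of naive wild-type C57BL/6 mice, stained with the dye CFSE and activated through CD3 and CD28 with 200 U of IL-2 for 48 h. In 3 libraries the medium held 5 mM itaconate, a dicarboxylate made by activated macrophages, and in 3 libraries it held 5 mM NaCl, so both groups share the activation and the IL-2. The headers of the control columns use the unexplained code NAC. It was taken to stand for NaCl, the sole other treatment the labels give, and every difference below depends on this. Whether the 3 libraries of a group are separate mice or cultures is not stated, and the p-values therefore measure only the spread between these libraries, which may be technical.

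Interferons are secreted proteins that warn cells of infection. Type I interferons bind the receptor pair IFNAR1 and IFNAR2, whose kinases JAK1 and TYK2 activate transcription factors of the STAT family. With IRF9, these form a complex that binds the interferon-stimulated response element (ISRE) of target genes. Interferon gamma, a product of activated T cells, acts through IFNGR1, IFNGR2, JAK1 and JAK2, and its target genes carry the gamma-activated site (GAS). The induced genes encode RNA sensors, proteins that block viral RNA or protein synthesis, GTPases that attack the vacuoles of intracellular microbes, and feedback regulators. In T cells the same program also bears on proliferation and survival.

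Itaconate-treated cells had less RNA of most of these genes. Of the 50 members, 31 fell, 3 rose and 16 did not pass the test (limma on log2 values, Benjamini-Hochberg adjusted p under 0.05 over all 13180 genes). Among all tested genes 17.8% fell and 18.2% rose, or 36.0% in either direction. The median log2 fold change of the members was −0.77, and over all tested genes it was −0.00088. A negative sign stands for a lower level with itaconate throughout, and fold changes are on the log2(value + 1) scale, on which the change of a weakly expressed gene comes out too small. The estimate was below 0 for 47 of 50 members (94.0%), against 50.1% of all tested genes. In 31 members all 3 itaconate libraries lay below all 3 NaCl libraries, where 24.2% of tested genes did so, and in 3 they lay wholly above. A fall of at least 2-fold was called for 14 members and for 5.60% of tested genes. The RNA came from bulk cultures, in which fewer cells of a type and less RNA per cell cannot be told apart.

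**Figure D1:**
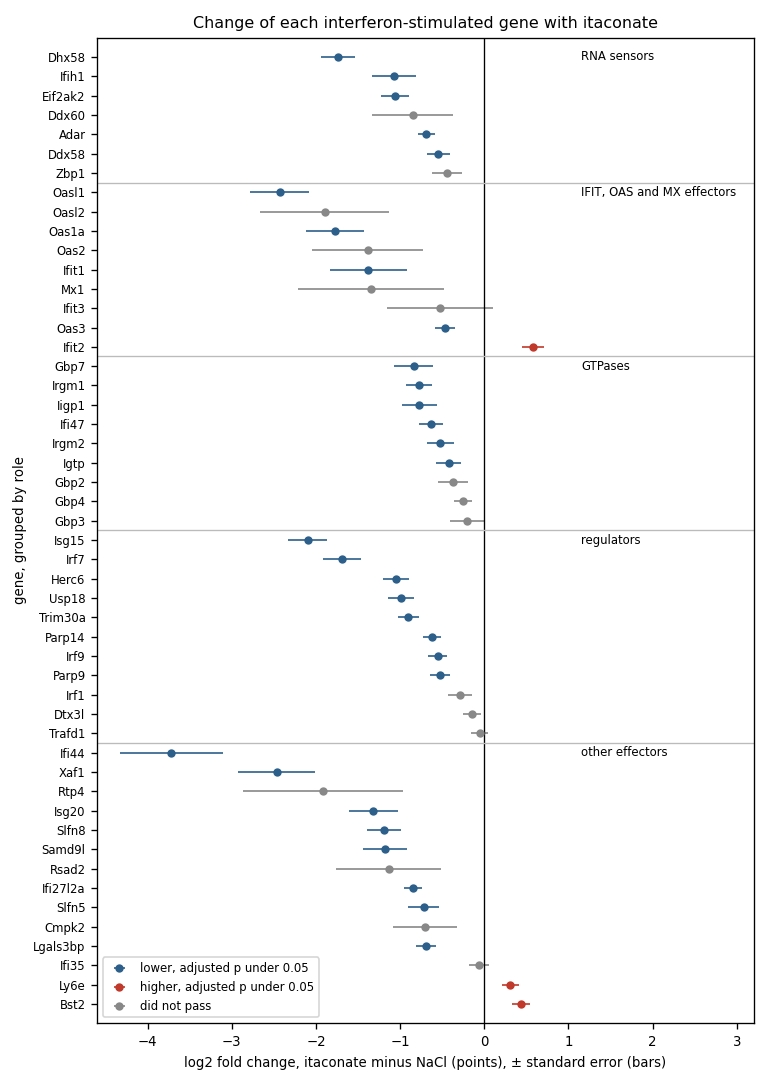
Log2 fold change of each of the 50 interferon-stimulated genes (x axis, itaconate minus NaCl; bars are ± 1 standard error) grouped by role (y axis), with blue for genes that fell, red for genes that rose and grey for genes that did not pass. All but Ifit2, Bst2 and Ly6e have estimates below 0, and Ifi44 lies farthest to the left at −3.72.

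**Figure D2:**
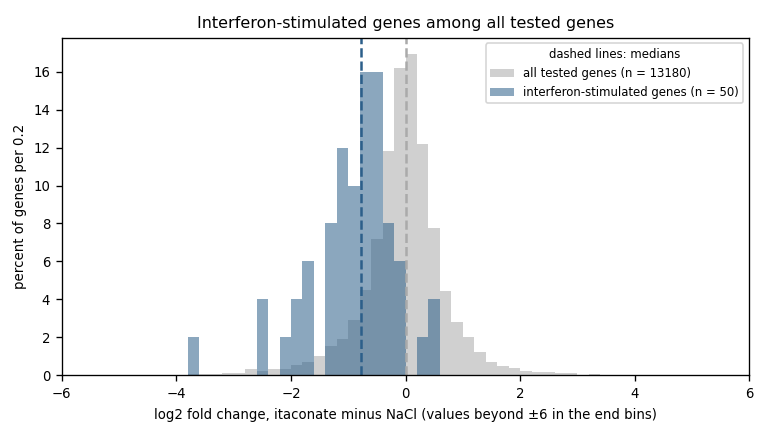
Distribution of log2 fold changes (x axis) as percent of genes per bin (y axis) for the 50 interferon-stimulated genes in blue and all 13180 tested genes in grey, with dashed lines at the medians. The members' median is −0.77 and that of all genes −0.00088.

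Promoter sequence was examined as a description. The members were chosen as genes that interferon induces, and interferon acts through the ISRE and the GAS. A raised share of these motifs among the members therefore follows largely from the choice of genes and is no separate result. RefSeq promoters of build GRCm38.p6, which run from 250 bases before to 50 bases after the start site, were matched for 38 of the 50 members. The ISRE was searched as GAAA, any pair of bases and GAAA again, and the GAS as TTCNNNGAA, which reads the same on both strands; the ISRE was searched on both. An ISRE match was found in 20 of the 38 promoters (52.6%), compared with 3.99% of the 27025 genes in the promoter table and 3.73% of the 9758 tested genes that had a promoter there. A GAS match was found in 11 of 38 (28.9%), compared with 9.55% of all genes in that table, and 6 members held both. Members that fell were found both with and without a match. Of 20 members with an ISRE match 14 fell (median log2 fold change −0.81), and of 18 without one 11 fell (median −0.699). For the GAS these numbers were 7 of 11 (median −0.52) and 18 of 27 (median −0.85). Neither motif was found in the promoters of Ifi44, Xaf1, Oasl1, Irf7, Samd9l and Herc6, which fell by at least 2-fold. Isg15, Ifit1, Oas1a, Slfn8, Ifih1 and Eif2ak2, with an ISRE match, and Isg20, with a GAS match, also fell by at least 2-fold. The windows below were picked from the members with an ISRE match. They are from Isg15 with 3 overlapping matches, Ifit1, the schlafen gene Slfn8, the GTPase genes Irgm1 and Gbp7, and Bst2, which went the other way. Each lies before the start site, is written 5′ to 3′ on the gene's own strand with 15 bases on either side where available, and has the matched letters in capitals. Where the capitals read TTTC, the ISRE is on the other strand.
Isg15: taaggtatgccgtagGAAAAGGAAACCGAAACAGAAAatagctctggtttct
Ifit1: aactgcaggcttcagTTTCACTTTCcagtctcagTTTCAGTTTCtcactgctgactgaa
Slfn8: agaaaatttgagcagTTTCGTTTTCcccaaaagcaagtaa
Irgm1: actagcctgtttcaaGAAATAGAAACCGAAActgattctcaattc
Gbp7: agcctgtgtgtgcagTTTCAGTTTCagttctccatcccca
Bst2: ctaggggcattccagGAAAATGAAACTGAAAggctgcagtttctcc
In order, they lie at chr4:156200860-156200911, chr19:34640770-34640828, chr11:83020834-83020873, chr11:48871421-48871465, chr3:142530268-142530307 and chr8:71537572-71537617. Isg15, Slfn8, Irgm1 and Bst2 are on the minus strand, and Ifit1 and Gbp7 on the plus strand. In Bst2 the ISRE match overlaps a GAS match, the only member of which this was true. A match is a description of letters and was not tested for binding.

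The RNA sensors detect viral or unusual RNA in the cytoplasm. Of 7 members 5 fell, 0 rose and 2 did not pass, with log2 fold changes from −1.74 to −0.44. Dhx58 encodes LGP2, a regulator of the RIG-I family of helicases. Its normalized estimated count was 172, 229 and 304 in itaconate replicates 1, 2 and 3 and 622, 880.0 and 824 in NaCl replicates 1, 2 and 3. The groups did not overlap, and the highest itaconate library was below the lowest control (3.34-fold lower; log2 change −1.74 ± 0.20 SE, adjusted p = 4.39e-05). Eif2ak2, the gene of the RNA-activated kinase PKR that stops translation, was at 365, 407 and 527 with itaconate and 937, 1046 and 723 with NaCl. It fell without overlap (log2 change −1.06 ± 0.17 SE, adjusted p = 0.000395). Adar, which encodes the enzyme that edits adenosine in double-stranded RNA, was at 1655, 1828 and 2207 with itaconate and at 3062, 2983 and 3057 with NaCl, where the controls lay close together (log2 change −0.69 ± 0.11 SE, adjusted p = 0.000358). Ifih1, the gene of the long-RNA sensor MDA5, was at 248, 208 and 217 with itaconate and 727, 504 and 287 with NaCl. The controls were spread widely, with replicate 3 the nearest to the itaconate libraries (log2 change −1.07 ± 0.26 SE, adjusted p = 0.00645). The call was lost when the variance was fitted without an intensity trend (adjusted p = 0.0628, range 0.000448 to 0.0628 over 16 alternatives). Ddx58, which encodes RIG-I itself, also fell (−0.55 ± 0.13). Zbp1, the gene of a sensor of Z-form nucleic acid that can trigger cell death, did not pass: it was at 533, 663 and 994 with itaconate and 999, 975 and 909.5 with NaCl. Itaconate replicate 3 reached the control range. Without that library Zbp1 passed (adjusted p = 0.00104, range 0.00104 to 0.267 over the alternatives), as did Ddx60 (0.0464, range 0.0464 to 0.541), whose log2 fold change over all libraries was −0.85 ± 0.48 (adjusted p = 0.186).

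The IFIT, OAS and MX families are effectors that act on viral RNA or particles. Of 9 members 4 fell, 1 rose and 4 did not pass. Oasl1, an OAS-like gene reported to restrain translation of Irf7, was at 16.8, 19.3 and 16.4 with itaconate and 142, 90.4 and 75.3 with NaCl. The itaconate libraries were tightly grouped and far below every control (5.402-fold lower; log2 change −2.43 ± 0.35 SE, adjusted p = 0.000195). Oas1a, an oligoadenylate synthetase gene whose product activates RNase L, was at 18.7, 26.9 and 26.7 with itaconate and 103, 93.3 and 60.8 with NaCl, again with no overlap (log2 change −1.77 ± 0.34 SE, adjusted p = 0.00157). Of its 31-base sequences 68.7% also occur in transcripts of Oas1g, so RSEM may have divided reads between these copies and the value is uncertain. Oas3, the largest of these synthetases, fell less, from 1275, 1324 and 1072 in the controls to 882, 974 and 796 with itaconate (log2 change −0.47 ± 0.12 SE, adjusted p = 0.00813). Ifit1, which binds viral mRNA caps, fell by 1.38 on the log2 scale (SE 0.46, adjusted p = 0.0323) and was at 14.03, 22.6 and 32.8 with itaconate and 107, 50.2 and 37.2 with NaCl. The groups nearly touched, since NaCl replicate 3 was close to itaconate replicate 3. The Ifit1 call depended on single libraries: adjusted p became 0.0977 with itaconate replicate 1 left out, 0.0716 with itaconate replicate 2 left out, 0.162 with NaCl replicate 1 left out and 0.0647 with NaCl replicate 2 left out. It was 0.0729 with no filter on low values and 0.0781 without the intensity trend (range 0.015 to 0.162 over 15 alternatives).

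Ifit2 rose, whereas its neighbour Ifit1 fell. This RNA-binding member of the family was at 449.9, 466 and 453 with itaconate and 317, 298 and 300.5 with NaCl. All itaconate libraries were above all controls, and the spread within each group was small (log2 change 0.58 ± 0.13 SE, adjusted p = 0.00393). Its call held under all 16 alternatives. Ifit2, Ifit3 and Ifit1 lie next to each other on chromosome 19 (GRCm38.p6; Ifit2 at 34550550 to 34576534, Ifit1 at 34640889 to 34650009), and the estimates were 0.58 ± 0.13, −0.52 ± 0.63 and −1.38 ± 0.46. The difference between these genes was not tested. The ISRE letters were not found in the Ifit2 promoter window, which holds a GAS match. Ifit3 was near the minimum level in both groups, shares 61.8% of its 31-base sequences with Ifit3b and is uncertain. Mx1, whose product traps influenza particles, is annotated by RefSeq as a transcribed pseudogene in this strain's genome. Its values were 0.935, 29.002 and 24.6 with itaconate and 23.5, 37.2 and 25.4 with NaCl, which overlap apart from itaconate replicate 1 (log2 change −1.35 ± 0.87 SE, adjusted p = 0.247). Oas2 and Oasl2 had estimates of −1.39 ± 0.66 and −1.898 ± 0.77 and did not pass (adjusted p = 0.119 and 0.0724). Without itaconate replicate 2, the library in which both were highest among the treated, Oasl2 passed (adjusted p = 0.0265, range 0.0265 to 0.286).

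**Figure D3:**
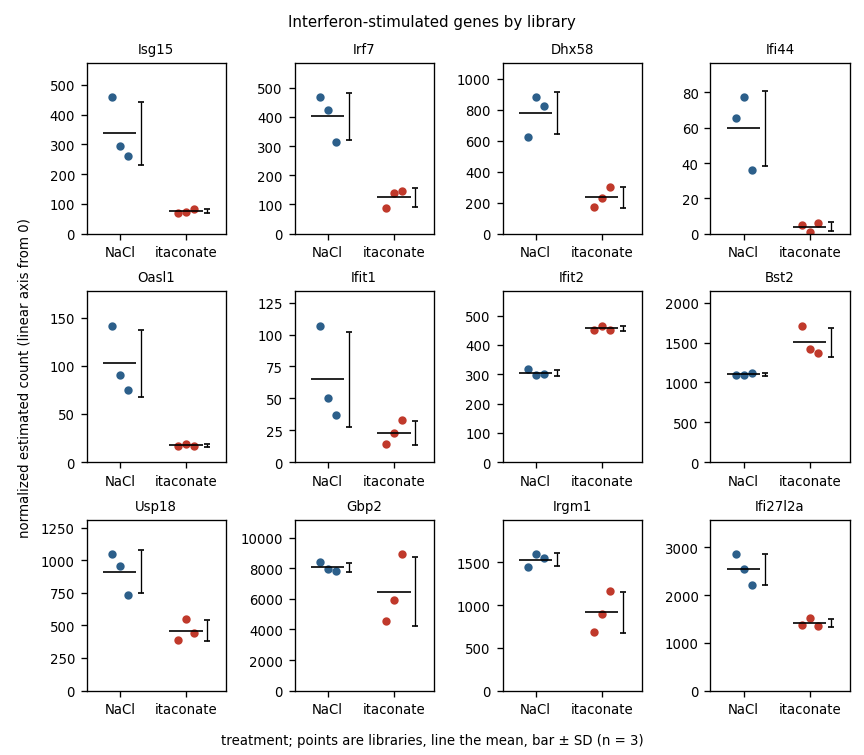
Normalized estimated counts (y axes, linear from 0) of 12 interferon-stimulated genes in the 3 NaCl libraries (blue) and the 3 itaconate libraries (red), with lines at the means and bars of ± 1 SD. Isg15, Irf7, Dhx58, Ifi44 and Oasl1 are low in every itaconate library, Ifit2 and Bst2 are high in every itaconate library, and Gbp2 overlaps.

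Regulators of the response include the transcription factors IRF1, IRF7 and IRF9 and the ISG15 modifier system. Of 11 members 8 fell, 0 rose and 3 did not pass. Isg15, a ubiquitin-like protein attached to other proteins, was at 70.1, 74.1 and 83.1 with itaconate and 459, 294 and 261 with NaCl. The itaconate libraries agreed closely while NaCl replicate 1 was the highest control (4.29-fold lower; log2 change −2.101 ± 0.23 SE, adjusted p = 2.87e-05). Herc6, the main ligase that attaches ISG15 in the mouse, was at 213, 245 and 244 with itaconate and 530.2, 518 and 414 with NaCl (log2 change −1.05 ± 0.15 SE, adjusted p = 0.000215). Usp18, the protease that removes ISG15 and also blocks IFNAR signalling, fell too (−0.99 ± 0.16). Irf7, the factor that amplifies type I interferon production, was at 86.98, 141 and 147 with itaconate and 467, 423 and 313 with NaCl, so that its highest treated library was below the lowest control (3.23-fold lower; log2 change −1.69 ± 0.23 SE, adjusted p = 0.00013). Trim30a, which encodes a TRIM protein that restrains inflammatory signalling, was at 1563, 1908 and 1739.7 with itaconate and 3521, 3666 and 2641 with NaCl (log2 change −0.91 ± 0.13 SE, adjusted p = 0.000161). In Isg15, Herc6, Irf7 and Trim30a the groups did not overlap. Irf9, a DNA-binding part of the complex that recognises the ISRE, fell as well (−0.56 ± 0.12).

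Irf1, a factor induced mainly by interferon gamma, did not pass. Its values were 2129, 2790.2 and 3447 with itaconate and 3253, 3353 and 3428 with NaCl. Itaconate replicate 3 was above every control and the other treated libraries below them, and Irf1 passed without replicate 3 (adjusted p = 0.00677, range 0.00677 to 0.482; log2 change −0.29 ± 0.14 SE, adjusted p = 0.122 over all libraries). Parp14, a mono-ADP-ribosyltransferase gene, and Parp9, whose product works in a complex with DTX3L, fell by 0.62 and 0.52 on the log2 scale. Their neighbour Dtx3l did not pass (log2 change −0.15 ± 0.11 SE, adjusted p = 0.303). The spans of Parp9 and Dtx3l on chromosome 16 share 558 bases, and since the strand setting of the counting is not given, reads from the shared part cannot be told apart. Trafd1, a feedback inhibitor of innate signalling, was near 0 (−0.06 ± 0.097).

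The GTPases are guanylate-binding proteins (GBPs) and immunity-related GTPases (IRGs), which interferon gamma induces strongly. All 9 members had estimates below 0, of which 6 fell and 3 did not pass. None fell by as much as 2-fold, and the range was −0.84 to −0.21. Irgm1, a regulator of the other IRG proteins and of autophagy, was at 688, 890.5 and 1163 with itaconate and 1448, 1597 and 1544 with NaCl. The groups were apart, with itaconate replicate 3 the nearest to the controls (log2 change −0.77 ± 0.16 SE, adjusted p = 0.00208). Iigp1, an effector IRG that disrupts parasite vacuoles, was at 134, 146 and 225 with itaconate and 305, 260.2 and 279 with NaCl (log2 change −0.77 ± 0.21 SE, adjusted p = 0.0109). Ifi47, another IRG, was at 898, 1208 and 1448 with itaconate and 1651, 1886 and 1885 with NaCl (log2 change −0.63 ± 0.15 SE, adjusted p = 0.00517). The Ifi47 call was lost without the intensity trend (adjusted p = 0.0559, range 0.000403 to 0.0559). Gbp7 was at 313, 523 and 686 with itaconate and 818, 1066 and 737 with NaCl, with itaconate replicate 3 just under the lowest control (log2 change −0.84 ± 0.23 SE, adjusted p = 0.0137). In Irgm1, Iigp1, Ifi47 and Gbp7 the groups did not overlap. The Gbp7 call was lost in 3 cases: adjusted p became 0.0792 with NaCl replicate 2 left out, 0.0559 with robust variances and 0.0984 without the trend (range 0.000998 to 0.0984).

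Irgm2 and Igtp, regulatory IRG genes that neighbour each other on chromosome 11, fell by 0.52 and 0.42 on the log2 scale, although their groups overlapped. For Irgm2, adjusted p became 0.0785 with itaconate replicate 1 left out, 0.0709 with itaconate replicate 2 left out, 0.0615 with NaCl replicate 1 left out and 0.0914 with NaCl replicate 2 left out, and it was 0.118 without the trend (range 0.000678 to 0.118). For Igtp, adjusted p became 0.147 with itaconate replicate 1 left out, 0.112 with itaconate replicate 2 left out, 0.0503 with NaCl replicate 1 left out, 0.107 with NaCl replicate 2 left out and 0.121 with NaCl replicate 3 left out, and the call was also lost under 4 other settings (range 0.000602 to 0.167). Igtp transcripts share 15.9% of their 31-base sequences with Irgm2. Gbp2, the most highly counted GBP member, did not pass. It was at 4581, 5915 and 8948 with itaconate and 8428, 7962 and 7834 with NaCl. Itaconate replicate 3 was the highest of all 6 libraries and replicate 1 the lowest (log2 change −0.37 ± 0.18 SE, adjusted p = 0.118). Without itaconate replicate 3, Gbp2 (adjusted p = 0.000557, range 0.000557 to 0.451), Gbp3 (0.0448, range 0.0448 to 0.889) and Gbp4 (0.0396, range 0.0304 to 0.31) all passed. Without itaconate replicate 1 the Gbp3 estimate turned to 0.038.

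The remaining 14 members are effectors of other kinds, of which 8 fell, 2 rose and 4 did not pass. Ifi44, a gene of unsettled molecular function, had the largest change of the 50. Its values were 4.68, 1.07 and 6.16 with itaconate and 65.3, 77.4 and 36.3 with NaCl. It was nearly absent from the treated libraries and present in every control (13.2-fold lower; log2 change −3.72 ± 0.61 SE, adjusted p = 0.000552). Ifi27l2a, a gene of a small hydrophobic membrane protein, was at 1365, 1509 and 1358 with itaconate and 2861, 2555 and 2208 with NaCl (log2 change −0.84 ± 0.11 SE, adjusted p = 8.89e-05). Slfn8, a schlafen gene linked to T cell growth control, was at 217, 314 and 399 with itaconate and 688, 806 and 590.4 with NaCl (log2 change −1.19 ± 0.20 SE, adjusted p = 0.000627). Its transcripts share 19.1% of their 31-base sequences with Slfn9. Lgals3bp, the gene of a secreted galectin-binding glycoprotein, was at 654, 567 and 743 with itaconate and 1099, 1029.7 and 1036 with NaCl (log2 change −0.696 ± 0.12 SE, adjusted p = 0.000735). In these 4 genes every treated library was below every control. The pro-apoptotic factor gene Xaf1 (−2.47 ± 0.46), the exonuclease gene Isg20 (−1.32 ± 0.29), Samd9l (−1.18 ± 0.26), a brake on cell growth, and Slfn5 (−0.72 ± 0.18) fell too. Rsad2, which encodes viperin, and its neighbour Cmpk2, which encodes a nucleotide kinase, were at −1.14 ± 0.62 and −0.703 ± 0.38 and did not pass (adjusted p = 0.175 and 0.171). Rtp4, a chaperone gene of membrane receptors, did not pass over all libraries (−1.92 ± 0.95, adjusted p = 0.135) but passed without itaconate replicate 2 (0.045, range 0.045 to 0.422). Ifi35 was at 597, 532 and 597 with itaconate and 639, 572 and 587 with NaCl, with overlapping groups (log2 change −0.06 ± 0.12 SE, adjusted p = 0.728).

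Bst2 and Ly6e, the other members that rose, encode lipid-anchored surface proteins. Bst2, or tetherin, which holds budding virus at the membrane, was at 1714, 1425 and 1370.2 with itaconate and 1089, 1099 and 1121 with NaCl. Every treated library was above the narrow control range (log2 change 0.44 ± 0.11 SE, adjusted p = 0.00635), and the call held under all 16 alternatives. Ly6e was at 8250.2, 7416 and 8358 with itaconate and 5567, 6875 and 7072 with NaCl. The groups were apart by a small margin (log2 change 0.31 ± 0.10 SE, adjusted p = 0.0318). Its rise depended on single libraries and on settings: adjusted p became 0.0805 with itaconate replicate 1 left out, 0.0692 with itaconate replicate 3 left out and 0.127 with NaCl replicate 1 left out. It was 0.0554 with no filter on low values, 0.0537 with upper-quartile rescaling and 0.123 without the intensity trend (range 0.00796 to 0.127).

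Libraries of the same treatment also differed from each other. Taken relative to each gene's NaCl mean, the median log2 level of the 50 members was −1.004, −0.66 and −0.49 in itaconate replicates 1, 2 and 3, and 0.017, 0.091 and −0.14 in NaCl replicates 1, 2 and 3. All 3 treated libraries were thus below all controls. Itaconate replicate 1 held the lowest treated value for 37 of 50 members, including 9 of 9 GTPases and 11 of 11 regulators, and itaconate replicate 3 the highest for 31, including 9 of 9 GTPases. For the IFIT, OAS and MX members itaconate replicate 2 was the highest in 8 of 9. The GTPase median was −0.901, −0.54 and −0.12 in itaconate replicates 1, 2 and 3, so replicate 3 was close to the controls for that class. Among the controls, NaCl replicate 3 was the lowest for 30 of 50. The median log2 fold change of all members was −0.575 without itaconate replicate 1 and −0.91 without itaconate replicate 3, and 28 and 37 members fell.

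**Figure D4:**
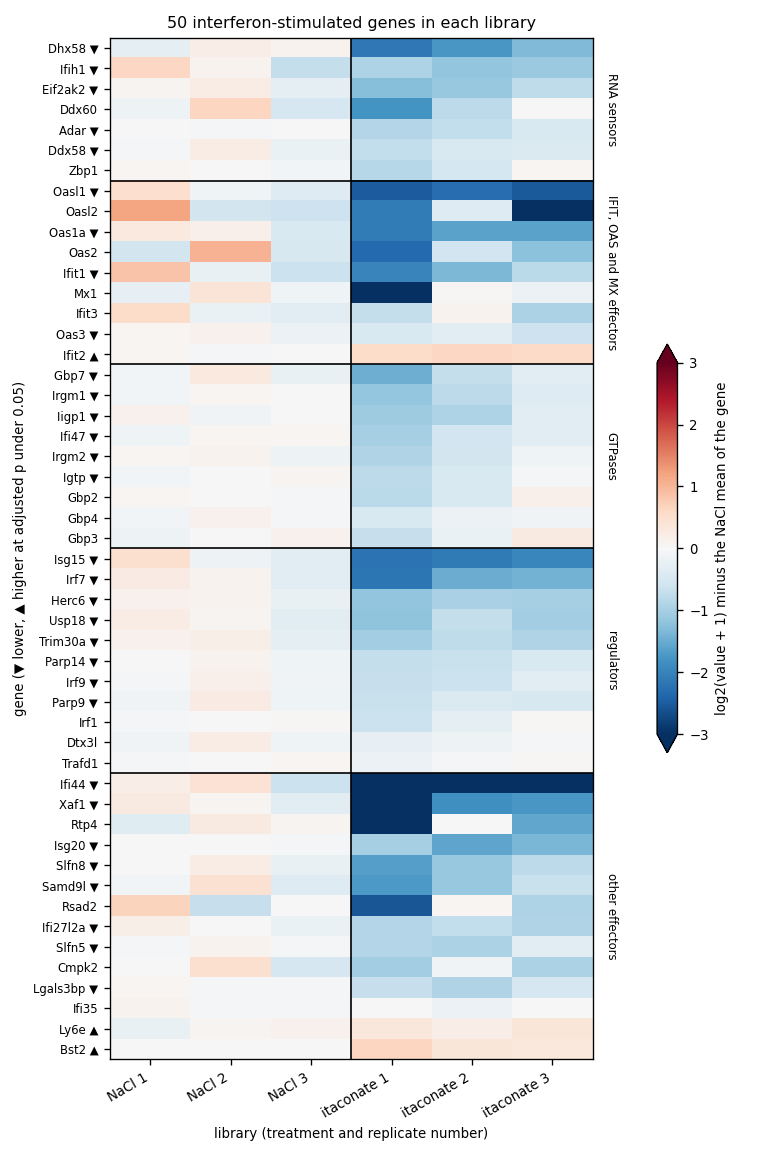
Log2(value + 1) of each interferon-stimulated gene (y axis, grouped by role) in each library (x axis), minus the mean of the 3 NaCl libraries, from blue (lower) to red (higher), with colours capped at 3 in either direction. The 3 itaconate columns are blue for most genes, palest for the GTPases in itaconate replicate 3, and red for Ifit2, Ly6e and Bst2.

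Fewer of the weakly expressed members passed the test. Of the 13 members with a mean under 100, all had estimates below 0 and 5 fell, with a median log2 fold change of −1.38. Of the 37 at 100 or more 26 fell and 3 rose, with a median of −0.63. All 10017 genes with a mean of at least 100, tested alone, had 20.4% that fell, beside 17.8% of all 13180 tested genes. A lower share among weakly expressed genes was thus not particular to the members. Per kilobase of merged exons (GENCODE M21), the NaCl means ran from 5.15 normalized estimated counts for Oasl2 to 5488 for Ifi27l2a, with Igtp (4209.8) and Gbp2 (3209) next to the top. Isg15 was at 447 on that scale in NaCl and 100.3 with itaconate.

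Genes upstream of the response were taken from lists that do not contain the members. Of 21 interferon genes, 18 were listed at 0 in all libraries, among them Ifnb1 and the Ifna genes listed, and 2 had means under 10. Ifng, the gene of interferon gamma, was the 1 ligand tested. It was at 130.0, 73.04 and 122 with itaconate and 261, 153 and 88.05 with NaCl, and the groups overlapped (log2 change −0.53 ± 0.35 SE, adjusted p = 0.262). Of 9 tested receptor, kinase and STAT genes 3 rose, 1 fell and 5 did not pass, so 44.4% were called beside 36.0% of all tested genes. Ifnar1 was at 3415, 3553 and 3265 with itaconate and 2497, 2395 and 2208 with NaCl, higher in every treated library (log2 change 0.53 ± 0.087 SE, adjusted p = 0.000539). Ifngr1 was at 2448, 3239 and 3732 with itaconate and 1960.1, 2274 and 2081 with NaCl, also without overlap (log2 change 0.56 ± 0.13 SE, adjusted p = 0.006), a call lost without the intensity trend (adjusted p = 0.0621, range 0.000282 to 0.0621). The partner chain Ifnar2 rose by 0.28 ± 0.092. Its adjusted p became 0.112 with itaconate replicate 2 left out, 0.0854 with NaCl replicate 1 left out, 0.0559 with NaCl replicate 2 left out and 0.0637 with NaCl replicate 3 left out, and was 0.0512 without the trend (range 0.0148 to 0.112). Ifngr2 did not pass (log2 change 0.21 ± 0.12 SE, adjusted p = 0.171). Receptor chains of the interferon lambda family had lower means with itaconate: Il10rb, shared with other cytokines, did not pass (log2 change −0.198 ± 0.12 SE, adjusted p = 0.219), and Ifnlr1, with mean levels of 6.29 with itaconate and 13.1 with NaCl, was under the minimum for testing.

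Jak2, the kinase of the interferon gamma receptor and of many cytokine receptors, was at 8138, 9418 and 10106 with itaconate and 15719.6, 14554 and 12905 with NaCl, lower in every treated library (log2 change −0.64 ± 0.10 SE, adjusted p = 0.000424). Stat2, a factor of the type I interferon pathway, was at 1646, 1902 and 1912 with itaconate and 1778, 1780.1 and 1666 with NaCl. The groups overlapped and Stat2 did not pass (log2 change 0.06 ± 0.095 SE, adjusted p = 0.652).

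**Figure D5:**
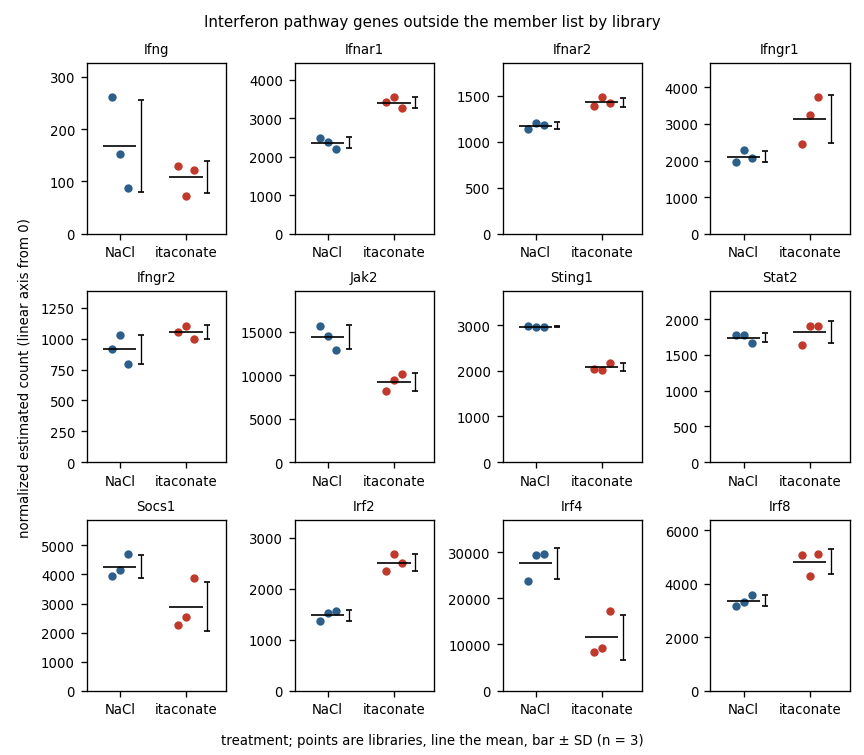
Normalized estimated counts (y axes, linear from 0) of 12 interferon pathway genes outside the member list in the 3 NaCl libraries (blue) and the 3 itaconate libraries (red), with lines at the means and bars of ± 1 SD. Ifnar1, Ifnar2, Ifngr1, Irf2 and Irf8 are higher in every itaconate library, Jak2, Sting1, Socs1 and Irf4 are lower, and Ifng, Ifngr2 and Stat2 overlap.

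Of 11 negative regulators and interferon regulatory factors outside the member list 5 rose, 2 fell and 4 did not pass, or 63.6% called beside 36.0% of all tested genes. Socs1, a feedback inhibitor of the JAK kinases, was at 2265, 2551 and 3863 with itaconate and 3952, 4145 and 4708 with NaCl, with itaconate replicate 3 just under the lowest control (log2 change −0.596 ± 0.16 SE, adjusted p = 0.0107). For Socs1, adjusted p became 0.0566 with itaconate replicate 2 left out and 0.0524 with NaCl replicate 3 left out, and it was 0.0921 without the trend (range 5.33e-05 to 0.0921). Irf2, a repressor that competes with IRF1 for the same sites, was at 2358, 2683 and 2504 with itaconate and 1359, 1519.9 and 1554 with NaCl, far above every control (log2 change 0.77 ± 0.095 SE, adjusted p = 7.29e-05). Its corepressor gene Irf2bp2 rose by 0.4002 ± 0.079 and Irf8 by 0.52 ± 0.094. Irf4, an activation-induced factor of T cells, was at 8352, 9188 and 17176 with itaconate and 23781, 29371 and 29643 with NaCl (log2 change −1.32 ± 0.21 SE, adjusted p = 0.000389). Itaconate replicate 3 had the highest treated values of both Irf4 and Socs1, as it did for the GTPases. Of 11 tested genes that lead to interferon production 1 fell (9.09%, beside 17.8% of all tested genes) and 10 did not pass. The gene that fell was Sting1, the adaptor of cytosolic DNA sensing (−0.52 ± 0.083), at 2044, 2015 and 2174 with itaconate and 2989, 2951 and 2963 with NaCl.

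Antigen presentation genes are another group that interferon induces. Of 15 MHC class I and immunoproteasome genes 3 rose, 0 fell and 12 did not pass, with a median log2 fold change of −0.086. The 20.0% that rose is near the 18.2% of all tested genes that did. Those that rose were Tapbp (0.47 ± 0.087), the chaperone gene tapasin, the class I gene H2-Q4 (0.58 ± 0.11), and Nlrc5 (0.34 ± 0.093), the transactivator of class I genes. For Nlrc5, adjusted p became 0.0583 with itaconate replicate 2 left out, and it was 0.0686 without the trend (range 0.00371 to 0.0686). A list of 43 other interferon-inducible genes, of which 37 were tested, had 14 that fell, 5 that rose and 18 that did not pass, with a median of −0.28. The share that fell was 37.8%, beside 17.8% of all tested genes, and the share that rose 13.5%, beside 18.2%. Tgtp1 and Tgtp2, T cell IRG genes that are near-identical copies and therefore uncertain one by one, fell by 1.59 and 1.21 on the log2 scale. Ly6a, the gene of the surface protein Sca-1, fell from 13115, 15030.2 and 17158 in NaCl to 7647, 7183 and 10148 with itaconate (log2 change −0.87 ± 0.13 SE, adjusted p = 0.000285).

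The cells had the markers of their label. The 8 CD4 T cell markers summed to between 67211 and 68753 normalized estimated counts in the itaconate libraries and between 56883 and 62399 in NaCl. The sum was thus higher in every itaconate library. Cd3e, Cd4, Cd28 and Lck rose, Cd3g fell and 3 did not pass. That is 62.5% called, beside 36.0% of all tested genes. The Cd3e call was lost without the intensity trend (adjusted p = 0.0501). Those of Cd28 and Lck were lost there and with single libraries left out (up to 0.0748 and 0.0661). Among listed markers of other cells, S100a8, S100a9 and Clec9a were at 0 in all libraries, and Lyz2, Siglech and Ncr1 did not exceed 2.15. From the same lists, Itgax (12.5), Flt3 (22.2), Zbtb46 (98.0), Itgam (36.7) and Ly6g (35.6) had means above 10. So had Eomes (163), Tcf4 (249) and Pacsin1 (648). Summed levels of the 6 B cell markers overlapped (204.1 to 336 with itaconate, 272 to 381 with NaCl). Those of the 2 CD8 markers also overlapped (308 to 365 and 363 to 408). Of the B cell genes Ebf1 fell (−1.24 ± 0.38), but adjusted p became 0.0768 with itaconate replicate 1 left out, 0.0692 with NaCl replicate 2 left out and 0.104 with NaCl replicate 3 left out, and it was 0.0605 with no filter on low values (range 0.0125 to 0.104). The monocyte list was higher with itaconate (46.7 to 86.2 against 7.03 to 32.4), as were the NK cell list (202 to 236 against 95.4 to 129.5), the conventional dendritic list (139 to 182 against 98.9 to 131) and the plasmacytoid list (1106 to 1222 against 615 to 654). In these, 1 gene in each list rose and made up most of its list's sum in every library: Itgam, Eomes, Zbtb46 and Pacsin1. Whether their RNA came from other cells or from the T cells was not tested. For Zbtb46, adjusted p became 0.0874 with itaconate replicate 1 left out, 0.0957 with itaconate replicate 2 left out and 0.127 with NaCl replicate 3 left out, and it was 0.0696 with no filter on low values (range 0.0202 to 0.127); the other calls held in every alternative in which the gene was tested. The neutrophil list was lower (15.9 to 30.8 against 34.2 to 64.4), carried by Ly6g, which did not pass, and the erythroid list stayed at or under 3.01. The part of other cells in the members' changes was not tested. Estimated reads per library ran from 20074299 to 24144999.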

How the data were processed

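RNA was sequenced from 3 libraries of activated CD4+ T cells per treatment, and samples were grouped by their titles. The deposited table holds 1 column per library of RSEM estimated counts per gene symbol after the authors' normalization, a signal of 0 or more. STAR 2.7.0f, RSEM 1.3.0 and mm10 are named in the submitters' processing notes. Annotation, strand setting and method of normalization: not given in the sources used here. Between 80.0% and 82.2% of values above 0 came out as whole reads within 0.02 reads. No count model was used, because the values were already normalized. A shift common to most genes may have been removed by the authors' normalization.

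Entries with a mean of at least 10 (13180) were tested as log2(value + 1) in limma 3.58.1 (R 4.3.3), with an intensity trend and no other term than treatment. P-values are two-sided and were adjusted by Benjamini-Hochberg across all entries tested, with a threshold of 0.05. Replicates differed by more than sampling noise (chi-square of estimated counts divided by its degrees of freedom, 12.7 to 25.5). On simulated counts for 13180 genes in these groups, the test recovered 52.2% of genes changed 1.5-fold, 74.6% changed 2-fold and 84.8% changed 4-fold, and called 8 of 12797 unchanged genes. Only 67, 67 and 66 genes were changed there, and those drawn under the minimum mean counted as not recovered. In the data 36.0% of tested genes were called, so these rates need not hold for them. Promoters and positions are from RefSeq (GRCm38.p6), and exon lengths and shared 31-base sequences from GENCODE M21. Shared sequences were counted for the members only, not for genes of the other lists.

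For each role class, values in every library are given for up to 4 called members with the smallest p, all members that rose and the member with the highest mean that did not pass. In each pathway list up to 4 called genes with the smallest p are named, and Stat2, Ifng, Socs1 and the 4 receptor genes whatever their p. 1 gene of the pathway lists and 1 marker are not reported here. Alternatives were other pseudocounts, filters, scalings and variance models, the replicate number as a block, and each library left out. The members and lists were chosen with earlier results of these data known.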

Additional observations from a re-analysis of the deposited data

How the results depend on the processing

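The counts of members that fell and rose and their median stayed within the bounds set for them under all 16 alternatives (1.5 times for counts, the SD between libraries, 0.203, for the median). Some only just did so. A change from 3 to 2 members that rose lies at the bound, and the median without itaconate replicate 1 (−0.575) lies just inside it. The number that fell ranged from 25 (no intensity trend) to 37 (without itaconate replicate 3), the number that rose from 2 to 3, and the median log2 fold change from −0.91 to −0.575. Of the 31 members that fell 25 were called in every alternative in which they were tested, as were 2 of the 3 that rose, and 46 of 50 estimates were below 0 in every one. With means of at least 100 only 37 members were tested. Called genes of the interferon pathway lists numbered 34 of 84 tested (40.5%, beside 36.0% of all tested genes), but 21 without the intensity trend, and 21 to 41 when 1 library was left out, with 21 without itaconate replicate 2. The count over all genes moved from 4741 to 3651 and 3478 in these cases, and the cause was not tested. The Gbp3 estimate changed sign (−0.45 to 0.038 when 1 library was left out; 0.038 without itaconate replicate 1). The replicate numbers were not taken as pairs, because the deviations of same-numbered libraries correlated at 0.146, 0.038 and 0.128, although each library correlated best with its own number. With the replicate number as a block, 35 members fell and 3 rose, 5636 of all genes were called instead of 4741, 48 pathway genes were called, and the median stayed at −0.77. The members that did not pass without the block but passed with it were Zbp1 (adjusted p = 0.04), Irf1 (0.0388), Gbp4 (0.0304) and Oasl2 (0.0476), of which each also passed without 1 itaconate library. Of the 13 members with a mean under 100, the 5 called all changed by at least 2-fold.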

Other observations

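Some interferon-inducible genes outside the member list were higher with itaconate. The highest rise of these was in Ms4a4b, a gene of a membrane protein of T cells. It was at 2504, 2096 and 2374 with itaconate replicates 1, 2 and 3 and 453, 527 and 350.4 in NaCl replicates 1, 2 and 3, far apart (log2 change 2.403 ± 0.14 SE, adjusted p = 4.3e-07 in limma). Mndal and Ifi203, related genes of the DNA-binding HIN-200 family, were at 118, 164 and 134 and 63.6, 79.5 and 40.03 with itaconate and at 68.3, 74.3 and 29.05 and 22.4, 32.1 and 12.7 with NaCl, and rose by 1.36 ± 0.34 and 1.44 ± 0.43 on the log2 scale. Sequence that Mndal and Ifi203 share with related genes was not counted. For Ifi203, adjusted p became 0.0545 with itaconate replicate 1 left out, 0.0941 with itaconate replicate 2 left out and 0.0729 with NaCl replicate 3 left out (range 0.00672 to 0.0941). The RNA helicase gene Mov10 rose by 0.66 ± 0.12, with a call that held under all 16 alternatives. Nt5c3, a nucleotidase gene, rose by 0.37 ± 0.13. Its adjusted p became 0.107 with itaconate replicate 1 left out, 0.149 with itaconate replicate 2 left out, 0.0998 with NaCl replicate 2 left out and 0.125 with NaCl replicate 3 left out, and the call was also lost with no filter on low values and without the intensity trend (range 0.00844 to 0.149). Mndal, Ifi203, Mov10 and Nt5c3 were named after their values were seen.

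Members that neighbour each other in the genome did not all share a call. Of the 50 members 20 lay in 8 groups with gaps of at most 200 kb. In Slfn5 with Slfn8 and Igtp with Irgm2 both genes fell, and in Rsad2 with Cmpk2 neither passed. The IFIT locus held a gene that rose, a gene that fell and a gene that did not pass.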
